A study of Arabidopsis thaliana with 12 samples.

Results

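The genes of tetrapyrrole and chlorophyll synthesis were followed in *Arabidopsis thaliana* seedlings that had been kept in darkness and that lacked different members of the phytochrome-interacting factors (PIFs), a family of bHLH transcription factors whose proteins build up in the dark. The set holds 30 of the 33602 loci in the count tables and was chosen by known function: 12 genes of the early steps, 12 of the magnesium branch, 4 of the heme branch and 2 regulators of the first enzyme. The *POR* genes of protochlorophyllide reduction are not among them. The study's comparisons addressed the genes under PIF3 control in etiolated seedlings, and how far its relatives PIF1, PIF4 and PIF5 share that control. Messenger RNA was read at its 3′ ends, and the quantity tested was the number of reads per locus. The 4 genotypes, all in the Columbia-0 ecotype, were *pifq* (mutated in *PIF1*, *PIF3*, *PIF4* and *PIF5*), *pif145* (mutated in *PIF1*, *PIF4* and *PIF5*), *pif3*, and the wild type (WT). There were 3 libraries of each, 12 in all. Every genotype received the same treatment, in which moist-chilled seeds were given 3 h of white light, then 15 min of far-red light, and then 2 d of darkness at 21 °C before whole seedlings were collected. Allele names are not in the labels.

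Plants build heme and chlorophyll along a shared route. Glutamyl-tRNA is turned into 5-aminolevulinate, whose units are joined into a ring and oxidised to protoporphyrin IX. At that point ferrochelatase inserts iron, on the way to heme and to the phytochrome chromophore, whereas magnesium chelatase inserts magnesium, on the way to chlorophyll. In the dark the magnesium branch halts at protochlorophyllide, because its reduction needs light, and an excess of that pigment damages seedlings when light arrives. PIF1, PIF3, PIF4 and PIF5 are known to bind the G-box, CACGTG. Binding to the PBE-box, CACATG, has been reported for PIF1, PIF3 and PIF4, while PIF5 was reported not to bind it.

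Sequences upstream of the genes are shown for 5 of the 6 members with a G-box or PBE-box within 250 bases before the annotated start. The missing factors bind the G-box, and all but PIF5 have been reported to bind the PBE-box. Both strands were searched, so that CATGTG is the PBE-box on the other strand, and neither motif can contain the other. The sequences come from the RefSeq genome, assembly TAIR10.1, run 5′ to 3′ on the strand of the gene and end 1 base before its annotated start. Capitals mark the motifs. *CAO* (chr1:16851272-16851521, minus strand), *CHL27* (chr3:21076255-21076504, plus strand) and *CHLI2* (chr5:18627700-18627949, plus strand) belong to the magnesium branch and rose in *pifq*.
CAO: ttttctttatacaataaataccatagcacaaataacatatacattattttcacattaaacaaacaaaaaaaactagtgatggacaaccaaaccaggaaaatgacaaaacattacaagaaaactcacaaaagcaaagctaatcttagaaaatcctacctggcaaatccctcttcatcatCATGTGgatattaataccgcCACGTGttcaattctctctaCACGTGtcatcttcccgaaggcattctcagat
CHL27: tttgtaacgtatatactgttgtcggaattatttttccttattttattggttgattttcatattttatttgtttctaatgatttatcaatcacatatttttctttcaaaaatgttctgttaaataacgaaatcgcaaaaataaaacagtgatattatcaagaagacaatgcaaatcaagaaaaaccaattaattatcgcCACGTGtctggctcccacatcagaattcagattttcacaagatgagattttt
CHLI2: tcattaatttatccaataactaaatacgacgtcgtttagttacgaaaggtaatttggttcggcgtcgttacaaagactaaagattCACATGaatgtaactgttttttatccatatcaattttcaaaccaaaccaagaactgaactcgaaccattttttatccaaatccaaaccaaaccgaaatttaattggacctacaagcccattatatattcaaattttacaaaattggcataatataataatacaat
*CAO* held 2 G-boxes, 52 and 32 bases before the start, and a PBE-box 72 bases before it. *CHL27* held a G-box at 52 bases and *CHLI2* a PBE-box at 165 bases. *FC2* (chr2:12954149-12954398, minus strand) and *HY2* (chr3:2803278-2803527, plus strand) belong to the heme branch and did not pass the test in *pifq*.
FC2: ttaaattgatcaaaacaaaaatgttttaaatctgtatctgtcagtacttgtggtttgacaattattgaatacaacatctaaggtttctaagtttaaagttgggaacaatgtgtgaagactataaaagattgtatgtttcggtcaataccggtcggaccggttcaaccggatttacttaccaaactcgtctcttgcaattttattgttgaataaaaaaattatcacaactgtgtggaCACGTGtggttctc
HY2: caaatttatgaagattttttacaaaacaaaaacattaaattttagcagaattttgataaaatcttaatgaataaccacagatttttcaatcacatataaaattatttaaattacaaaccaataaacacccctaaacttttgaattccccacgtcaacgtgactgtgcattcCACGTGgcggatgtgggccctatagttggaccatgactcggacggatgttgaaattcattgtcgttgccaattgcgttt
The G-box of *FC2* began 14 bases before the start and that of *HY2* 79 bases before it. A G-box was found in 5 of the 30 members (16.7%), against 6.49% of 27443 protein-coding nuclear genes, and a PBE-box in 2 members (6.67%), against 11.1%. Either motif was found in 6 members (20%), against 16.6% of all genes. In windows of 1000 bases, 17 members (56.7%) held either motif, against 46.3% of all genes, and these included 9 of the 12 magnesium-branch genes and 4 of the 12 early genes. *HEMA1*, *CHLH* and *GUN4*, which with *CAO* had the 4 largest log2 fold changes of the set in *pifq*, held neither motif in 1000 bases. When the window ran from 250 bases before the start to 300 bases after it, *CHLH* gained a G-box, and 6 members (20%) held one, against 10.8% of all genes. A match of letters is a description of the sequence and does not show a binding site. The study also mapped PIF3 binding over the genome, by sequencing DNA precipitated with tagged PIF3 from dark-grown seedlings. Those binding sites were not compared with the motifs here.

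The libraries held 23907577 to 41247734 counted reads, and 18356 loci had enough reads to be tested, including all 30 members. *PIF3* stood at 0.945 ± 0.461 CPM in *pifq* and 1.14 ± 0.519 CPM in *pif3* libraries, with 46.9 ± 11.4 CPM in *pif145* and 61.7 ± 15.9 CPM in WT (mean ± SD, n = 3). *PIF1* averaged 0.0955 CPM in *pifq* and 0.145 CPM in *pif145* libraries, with 9.3 CPM in *pif3* and 9.75 CPM in WT. *PIF5* had 2 reads in all *pifq* libraries and 4 in all *pif145* libraries, against 178 in *pif3* and 129 in WT. *PIF4* does not check the labels, as its 3′ end was read at 2.76 CPM in *pifq* and 5.52 CPM in *pif145* libraries, with 5.01 CPM in *pif3* and 3.29 CPM in WT. Of 9 tissue markers, the shoot gene *RBCS1A*, the etiolated-seedling gene *PORA* and the root genes *PIN2*, *COBL9* and *PRP3* were read in all libraries. Flower gene *AG* and pollen gene *VGD1* had 0 reads, and flower gene *AP3* had at most 5 reads in a genotype. The seed storage gene *CRA1* differed between genotypes, at 61.2 ± 24.6 CPM in *pifq* and 52.4 ± 23.6 CPM in *pif145* libraries, with 586 ± 180 CPM in *pif3* and 637 ± 320 CPM in WT. *RBCS1A* averaged 3032 ± 893 CPM in *pifq*, 2310 ± 325 CPM in *pif145*, 1956 ± 356 CPM in *pif3* and 1581 ± 151 CPM in WT, and *PORA* 748 ± 214 CPM in *pifq* and 1756 ± 251 CPM in *pif145* libraries, with 1403 ± 144 CPM in *pif3* and 1428 ± 224 CPM in WT. *PIN2*, *COBL9* and *PRP3* averaged 56.6, 4.14 and 18.8 CPM in *pifq*, against 65.3, 2.96 and 17.5 CPM in WT. The part of these shifts in the results for the pathway was not tested. In whole seedlings, more cells of a type and more RNA per cell cannot be told apart.

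In *pifq*, 10 of the 30 members rose and 0 fell relative to WT, with rise and fall taken to mean a fold change of 2 or more at an adjusted p of 0.05 or less. Over all genes tested, 4.92% rose and 3.35% fell by the same rule. The 10 genes were *HEMA1*, *HEME1* and *HEME2* of the early steps and *CHLH*, *CHLI1*, *CHLI2*, *GUN4*, *CHL27*, *DVR* and *CAO* of the magnesium branch. A further 10 members were higher at an adjusted p of at most 0.05 but by less than 2-fold, so that 20 of 30 were higher at that threshold, against 10.1% of all genes. In 21 members every *pifq* library was above every WT library, against 17.2% of all genes. The median log2 fold change was 0.75 over the 12 early genes, 1.24 over the 12 magnesium-branch genes, 0.18 over the 4 heme-branch genes and 0.43 over the 2 regulators, beside -0.03 over all genes tested. Without replicate 3 of every genotype 6 members rose, and *HEME2*, *CHLI1*, *CHLI2* and *CHL27* did not. Without replicate 2 of every genotype 11 rose, and *HEMA1* and *HEME2* were not among them. With the replicate number as a block, 23 members were higher at the adjusted p, against 4510 of all 18356 genes. In that fit 1 member, *HEMA2*, was lower, against 4761 of all genes, and the same 10 members rose, against 1133 of all genes. Adjusted p-values throughout are those of edgeR's quasi-likelihood test over all genes, and errors of log2 fold changes are standard errors.

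**Figure D1:**
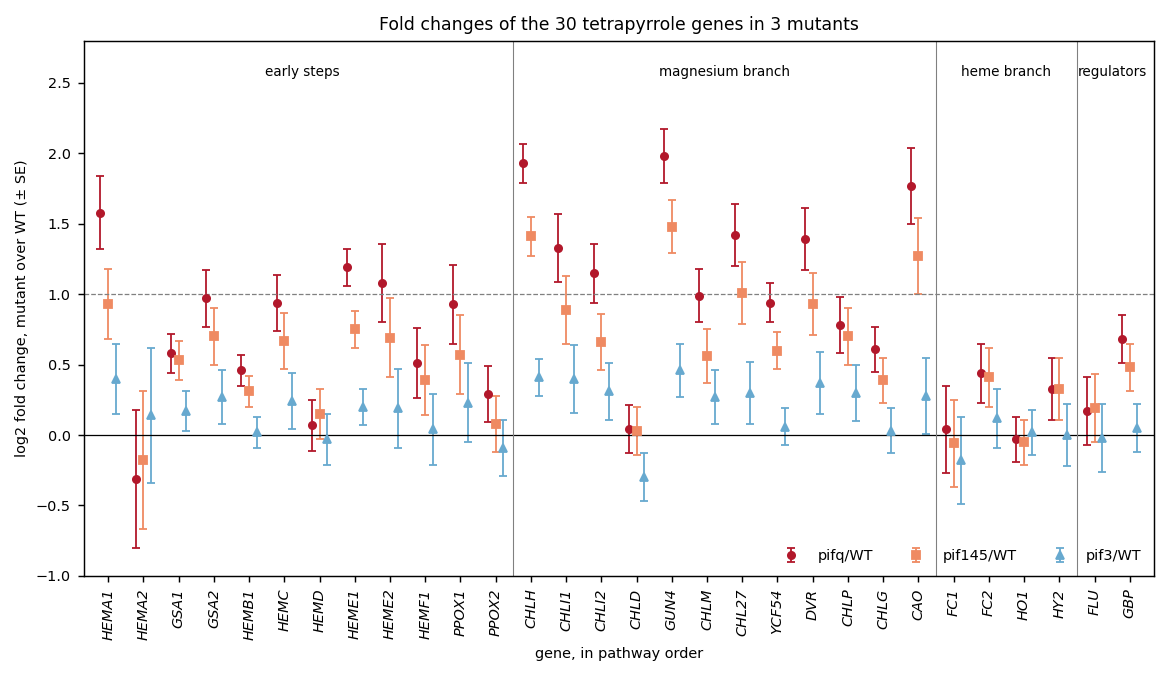
Log2 fold change of each of the 30 members in *pifq*, *pif145* and *pif3* over WT, with bars of 1 standard error from the edgeR fit (3 libraries per genotype), genes in pathway order and the dashed line at a 2-fold rise. The points for *pifq* reach 1.98 in *GUN4* and lie near 0 in *CHLD* (0.04), *FC1* (0.04) and *HO1* (-0.03), and the points for *pif3* reach 0.46 in *GUN4*.

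The first committed step is catalysed by glutamyl-tRNA reductase, whose genes are *HEMA1*, the main form in green tissue, and *HEMA2*. *HEMA1* (AT1G58290, chr1:21623700-21626402) had 114, 132 and 180 CPM in *pifq*, 83.4, 79.8 and 106 CPM in *pif145*, 48, 59 and 80 CPM in *pif3*, and 33.2, 49.1 and 59.7 CPM in WT (replicates 1, 2 and 3, CPM on the TMM scale). Every *pifq* library was above every *pif145* library and every *pif145* library was above every WT library, whereas *pif3* and WT overlapped. *HEMA1* rose by 1.58 ± 0.26 (adjusted p = 0.00117) on the log2 scale in *pifq*/WT. *HEMA2* (AT1G09940, chr1:3236908-3239554) had 4.18, 4.32 and 10.8 CPM in *pifq*, 5.49, 5.45 and 9.99 CPM in *pif145*, 5.44, 5.93 and 14.8 CPM in *pif3*, and 5.65, 5.65 and 12.4 CPM in WT. Replicate 3 was the highest library in each genotype, and the genotypes overlapped. Its log2 fold change in *pifq*/WT was -0.31 ± 0.49 (95% interval -1.37 to 0.76), which did not pass the test in edgeR (adjusted p = 0.711). With the replicate number as a block it was lower, by less than 2-fold, at -0.33 (adjusted p = 0.032 in edgeR).

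Glutamate-1-semialdehyde aminotransferase, which makes 5-aminolevulinate, is encoded by *GSA1* and *GSA2*. *GSA1* had 747, 617 and 681 CPM in *pifq*, 756, 599 and 621 CPM in *pif145*, 556, 496 and 489 CPM in *pif3*, and 477, 429 and 460 CPM in WT. *GSA2* had 89.6, 77.7 and 117 CPM in *pifq*, 74.6, 67.8 and 91.9 CPM in *pif145*, 53.4, 52.3 and 69 CPM in *pif3*, and 41.6, 46.2 and 56.9 CPM in WT. In both genes all *pifq* libraries were above all WT libraries, and the log2 fold changes of 0.58 ± 0.14 in *GSA1* and 0.97 ± 0.20 in *GSA2* passed the adjusted p in edgeR (0.0111 and 0.00472) but not 2-fold. *HEMB1*, 5-aminolevulinate dehydratase, was steady within a genotype, with 387, 390 and 389 CPM in *pifq*, 356, 353 and 342 CPM in *pif145*, 272, 298 and 289 CPM in *pif3*, and 269, 299 and 282 CPM in WT. The *pifq* libraries were all above those of WT, a log2 fold change of 0.46 ± 0.11 (adjusted p = 0.0133) in edgeR, below 2-fold. *HEMC*, porphobilinogen deaminase, was the member of the early steps with the most reads, at 1537, 1007 and 1163 CPM in *pifq*, 1301, 855 and 936 CPM in *pif145*, 896, 689 and 701 CPM in *pif3*, and 710, 618 and 609 CPM in WT. Replicate 1 was the highest of each genotype, *pifq* and WT did not overlap, and the log2 fold change was 0.94 ± 0.20 (adjusted p = 0.00662) in edgeR.

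*HEMD*, uroporphyrinogen III synthase, stood at 11.4 to 17 CPM in all 12 libraries, and its log2 fold change in *pifq*/WT was 0.07 ± 0.18 (95% interval -0.32 to 0.46). Uroporphyrinogen III decarboxylase is encoded by *HEME1* and *HEME2*, and both rose in *pifq*. *HEME1* (AT3G14930, chr3:5020461-5023146) had 127, 126 and 137 CPM in *pifq*, 108, 85.8 and 94.2 CPM in *pif145*, 61.1, 66.4 and 68.7 CPM in *pif3*, and 61.3, 55.7 and 54 CPM in WT. The *pifq* libraries were above all others and the *pif145* libraries above those of *pif3* and WT, which overlapped. Its log2 fold change was 1.19 ± 0.13 (adjusted p = 8.37e-05) in edgeR. *HEME2* (AT2G40490, chr2:16912805-16915202) had 154, 82 and 103 CPM in *pifq*, 120, 64.5 and 73.2 CPM in *pif145*, 73.4, 53.2 and 57 CPM in *pif3*, and 66.3, 47.7 and 46.5 CPM in WT. Replicate 1 was the highest of each genotype, and *pifq* was above WT without overlap. Its rise of 1.08 ± 0.28 (adjusted p = 0.0182) in edgeR was lost without WT replicate 2, WT replicate 3 or *pifq* replicate 1, and without scaling factors between libraries.

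Coproporphyrinogen III oxidase and protoporphyrinogen IX oxidase close the shared route. *HEMF1*, which encodes coproporphyrinogen III oxidase, averaged 43.5 ± 11 CPM in *pifq*, 40.2 ± 11.1 CPM in *pif145*, 31.4 ± 4.69 CPM in *pif3*, and 30.6 ± 6.09 CPM in WT (SD, n = 3), and its log2 fold change of 0.51 ± 0.25 in *pifq*/WT did not pass in edgeR (adjusted p = 0.183, or 0.000127 with the replicate block, still below 2-fold). *PPOX1*, protoporphyrinogen IX oxidase, had 34.4, 35.5 and 57.7 CPM in *pifq*, 29.3, 26.7 and 43.3 CPM in *pif145*, 22.5, 21.6 and 34.8 CPM in *pif3*, and 19.3, 19.3 and 28.6 CPM in WT. The *pifq* libraries were above the WT libraries of 19.3 to 28.6 CPM, and the log2 fold change was 0.93 ± 0.28 (adjusted p = 0.0356) in edgeR, below 2-fold. *PPOX2*, the second gene of that enzyme, averaged 7.96 ± 0.87 CPM in *pifq*, 6.87 ± 1.3 CPM in *pif145*, 6.11 ± 1.46 CPM in *pif3*, and 6.5 ± 0.339 CPM in WT, with a log2 fold change of 0.29 ± 0.20 (adjusted p = 0.345 in edgeR). In the last 500 bases of the longest RefSeq transcript of *PPOX2*, 60.9% of 36-base stretches were unique, the rest being shared with the locus AT5G14210. The transcript on which its reads were counted can differ from that one, and an effect on its count was not tested.

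**Figure D2:**
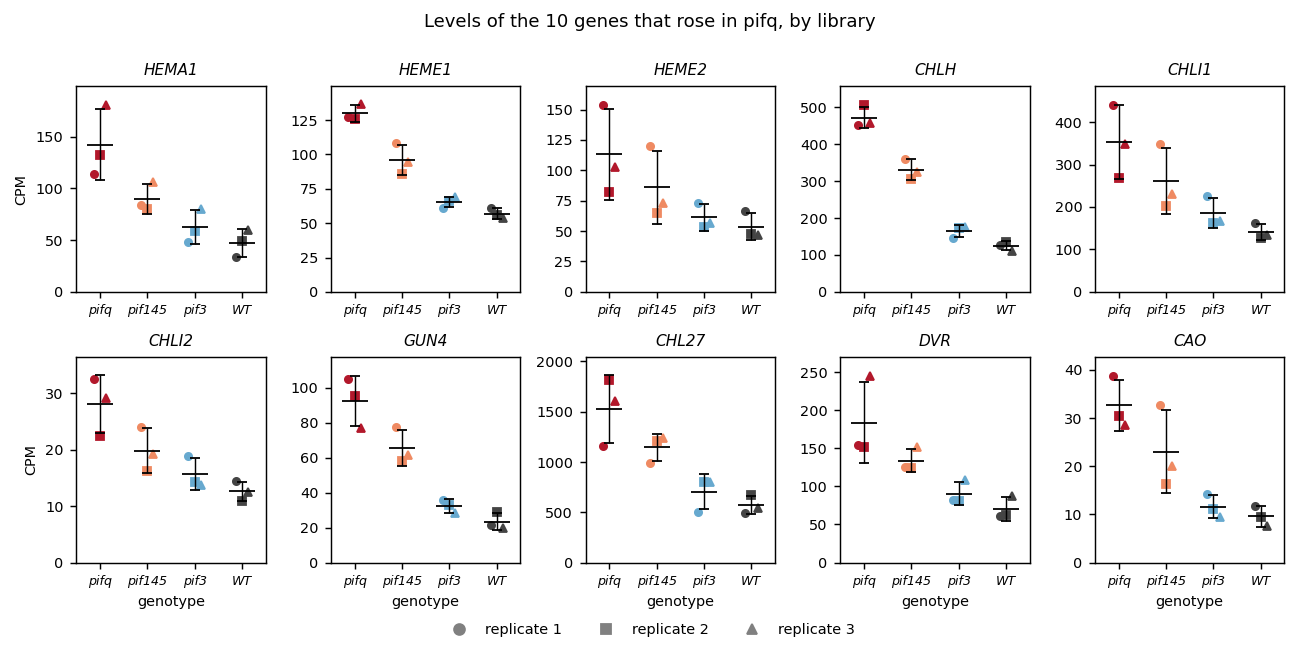
Level in CPM (TMM-scaled) of the 10 members that rose in *pifq*, by library, with marker shape for the replicate number and the black bar and whiskers for mean ± SD (n = 3). In each panel all *pifq* points lie above all *pif3* and WT points, and in *CHLH* the 4 genotypes do not overlap, with 453 to 506 CPM in *pifq* and 111 to 135 CPM in WT.

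Magnesium chelatase opens the chlorophyll branch and is built from H, I and D subunits with the activator GUN4. *CHLH*, the porphyrin-binding subunit (AT5G13630, chr5:4387307-4392429), had 453, 506 and 458 CPM in *pifq*, 361, 305 and 326 CPM in *pif145*, 146, 172 and 176 CPM in *pif3*, and 127, 135 and 111 CPM in WT. The 4 genotypes did not overlap, in the order *pifq*, *pif145*, *pif3* and WT, and the log2 fold change in *pifq*/WT was 1.93 ± 0.14 (adjusted p = 4.13e-06) in edgeR. *GUN4* (AT3G59400, chr3:21948501-21949796) had 105, 95.4 and 77.1 CPM in *pifq*, 77.5, 58 and 61.6 CPM in *pif145*, 35.8, 33 and 28.3 CPM in *pif3*, and 21.5, 29.2 and 19.8 CPM in WT. *pifq* and *pif145* each lay above *pif3* and WT, while *pifq* met *pif145* at 77.1 and 77.5 CPM, and the log2 fold change in *pifq*/WT of 1.98 ± 0.19 (adjusted p = 3.97e-05) in edgeR was the largest of the 30.

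The I subunit is an ATPase encoded by *CHLI1* and *CHLI2*. *CHLI1* (AT4G18480, chr4:10201672-10203469) had 441, 268 and 349 CPM in *pifq*, 349, 203 and 230 CPM in *pif145*, 226, 162 and 168 CPM in *pif3*, and 163, 126 and 133 CPM in WT. *CHLI2* (AT5G45930, chr5:18627950-18629697), printed above for its PBE-box, had 32.6, 22.4 and 29.2 CPM in *pifq*, 24.1, 16.2 and 19.2 CPM in *pif145*, 18.9, 14.2 and 13.8 CPM in *pif3*, and 14.4, 10.9 and 12.5 CPM in WT. In both, replicate 1 was the highest of each genotype, and *pifq* and *pif145* were above WT without overlap. Log2 fold changes in *pifq*/WT were 1.33 ± 0.24 (adjusted p = 0.0024) for *CHLI1* and 1.15 ± 0.21 (adjusted p = 0.00221) for *CHLI2* in edgeR, and that of *CHLI2* was under 2-fold without scaling factors. *CHLD*, the D subunit, had 79.3, 106 and 83.1 CPM in *pifq*, 86.8, 97.8 and 82.3 CPM in *pif145*, 58.5, 84.8 and 68.5 CPM in *pif3*, and 90.1, 95.3 and 75.8 CPM in WT. The genotypes overlapped, and its log2 fold change in *pifq*/WT was 0.04 ± 0.17 (95% interval -0.33 to 0.41, adjusted p = 0.905 in edgeR), the only one of the 12 magnesium-branch genes that did not pass the adjusted p. Of the 36-base stretches in the last 500 bases of its longest RefSeq transcript, 98.5% were unique, the rest being shared with AT1G08530.

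The next enzymes add a methyl group, close the fifth ring and reduce a vinyl group. *CHLM*, the methyltransferase, had 228, 177 and 241 CPM in *pifq*, 196, 126 and 159 CPM in *pif145*, 143, 110 and 141 CPM in *pif3*, and 117, 93.4 and 116 CPM in WT. All *pifq* libraries were above WT, and the log2 fold change of 0.99 ± 0.19 (adjusted p = 0.00383) in edgeR was just under 2-fold. *CHL27*, a subunit of the ring cyclase (AT3G56940, chr3:21076505-21078443) with a G-box 52 bases upstream, had the most reads of the branch, with 1158, 1815 and 1603 CPM in *pifq*, 995, 1210 and 1236 CPM in *pif145*, 505, 803 and 805 CPM in *pif3*, and 496, 670 and 545 CPM in WT. *pifq* and *pif145* overlapped with each other, and all of their libraries were above those of *pif3* and WT. Its log2 fold change in *pifq*/WT was 1.42 ± 0.22 (adjusted p = 0.000847) in edgeR. *YCF54*, which assists the cyclase, had 337, 355 and 323 CPM in *pifq*, 267, 287 and 248 CPM in *pif145*, 174, 202 and 174 CPM in *pif3*, and 160, 202 and 165 CPM in WT. The *pifq*, *pif145* and WT libraries formed separate ranges, with a log2 fold change of 0.94 ± 0.14 (adjusted p = 0.000509) in *pifq*/WT in edgeR, below 2-fold. *DVR*, the divinyl reductase (AT5G18660, chr5:6220710-6222300), had 154, 152 and 245 CPM in *pifq*, 126, 124 and 151 CPM in *pif145*, 82.2, 81.1 and 108 CPM in *pif3*, and 60.6, 61.8 and 87.7 CPM in WT. *pifq* lay just above *pif145*, both lay above *pif3* and WT, and the rise in *pifq*/WT was 1.39 ± 0.22 (adjusted p = 0.00103) in edgeR.

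The last 3 genes of the branch serve the finishing steps. *CAO*, chlorophyllide *a* oxygenase, makes chlorophyll *b* (AT1G44446, chr1:16848308-16851271) and carries 2 G-boxes and a PBE-box upstream. It had 38.7, 30.5 and 28.6 CPM in *pifq*, 32.8, 16.2 and 20.1 CPM in *pif145*, 14.2, 11.1 and 9.46 CPM in *pif3*, and 11.8, 9.39 and 7.5 CPM in WT. Replicate 1 of *pif145* was high, at 32.8 CPM against 16.2 and 20.1 CPM, and both *pifq* and *pif145* were above WT without overlap. The log2 fold change in *pifq*/WT was 1.77 ± 0.27 (adjusted p = 0.000796) in edgeR. *CHLP*, geranylgeranyl reductase, makes the phytyl tail and averaged 536 ± 68.3 CPM in *pifq*, 504 ± 97.2 CPM in *pif145*, 383 ± 87.4 CPM in *pif3*, and 311 ± 42.6 CPM in WT. *CHLG*, chlorophyll synthase, attaches that tail and averaged 89.4 ± 8.58 CPM in *pifq*, 76.8 ± 10.4 CPM in *pif145*, 59.5 ± 8.24 CPM in *pif3*, and 58.5 ± 7.13 CPM in WT. Both passed the adjusted p below 2-fold in *pifq*/WT, with log2 fold changes of 0.78 ± 0.20 (adjusted p = 0.0182) and 0.61 ± 0.16 (adjusted p = 0.0173) in edgeR.

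**Figure D3:**
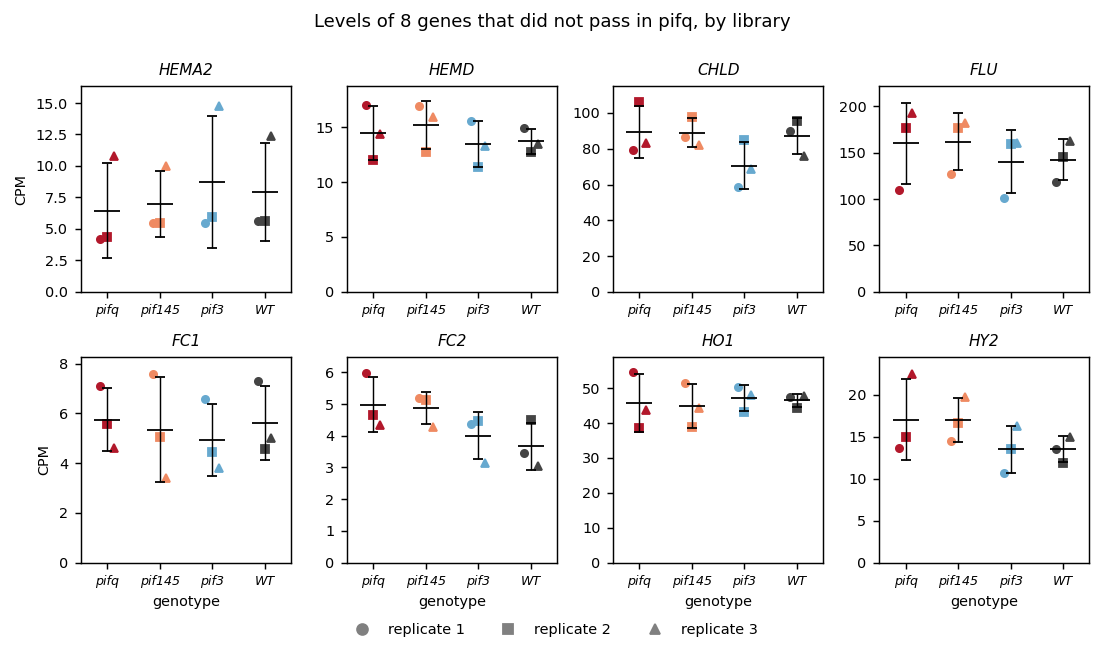
Level in CPM (TMM-scaled) of *HEMA2*, *HEMD*, *CHLD*, *FLU* and the 4 heme-branch genes, none of which passed the adjusted p in *pifq*/WT, by library, drawn as in the plot of the 10 risen genes. The points of *pifq* and WT overlap in each panel, as in *HO1* with 38.7 to 54.8 CPM in *pifq* and 44.4 to 47.7 CPM in WT.

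In the heme branch, 0 of 4 genes rose in *pifq*/WT and 0 passed the adjusted p in edgeR, with medians as given above. At an unadjusted p of 0.05 in edgeR there were 0, against 5789 of all 18356 genes. *FC1*, a ferrochelatase, had 7.1, 5.56 and 4.59 CPM in *pifq*, 7.59, 5.05 and 3.42 CPM in *pif145*, 6.58, 4.45 and 3.81 CPM in *pif3*, and 7.3, 4.55 and 5 CPM in WT. *FC2*, the other ferrochelatase, had 5.97, 4.65 and 4.33 CPM in *pifq*, 5.19, 5.13 and 4.28 CPM in *pif145*, 4.37, 4.48 and 3.15 CPM in *pif3*, and 3.45, 4.5 and 3.06 CPM in WT. *pifq* and WT overlapped in both genes, and replicate 1 was the highest of each genotype in *FC1*. Log2 fold changes in *pifq*/WT were 0.04 ± 0.31 (95% interval -0.63 to 0.71) for *FC1* and 0.44 ± 0.21 (-0.02 to 0.89) for *FC2*, so that a 2-fold rise lay outside both intervals. For *FC1*, 80.4% of 36-base stretches were unique, the others being shared with AT5G26038. *HO1*, heme oxygenase, averaged 45.7 ± 8.23 CPM in *pifq*, 44.9 ± 6.37 CPM in *pif145*, 47.2 ± 3.68 CPM in *pif3*, and 46.5 ± 1.88 CPM in WT, a log2 fold change of -0.03 ± 0.16 (-0.37 to 0.32). *HY2*, which makes the phytochrome chromophore, averaged 17 ± 4.79 CPM in *pifq*, 16.9 ± 2.63 CPM in *pif145*, 13.5 ± 2.8 CPM in *pif3*, and 13.5 ± 1.56 CPM in WT, a log2 fold change of 0.33 ± 0.22 (adjusted p = 0.328 in edgeR). With the replicate number as a block, *FC2* and *HY2* passed the adjusted p in *pifq*/WT below 2-fold (0.0206 for each in edgeR).

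*FLU* and *GBP* act on glutamyl-tRNA reductase, *FLU* as an inhibitor and *GBP* as its membrane anchor. *FLU* averaged 160 ± 43.9 CPM in *pifq*, 162 ± 30.2 CPM in *pif145*, 140 ± 33.7 CPM in *pif3*, and 142 ± 22.3 CPM in WT, and its log2 fold change of 0.17 ± 0.24 in *pifq*/WT did not pass (adjusted p = 0.68 in edgeR). *GBP* had 15.5, 12.9 and 13.1 CPM in *pifq*, 13, 12.3 and 10.9 CPM in *pif145*, 9.36, 10.2 and 7.24 CPM in *pif3*, and 7.49, 9.78 and 8.57 CPM in WT. All *pifq* libraries exceeded those of WT, with a log2 fold change of 0.68 ± 0.17 (adjusted p = 0.0157) in edgeR, below 2-fold.

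Summed over genes, the sections of the pathway differed in size as well as in change. The 12 magnesium-branch genes had 3686, 4082 and 4098 CPM in *pifq*, 3137, 2924 and 3174 CPM in *pif145*, 1842, 2036 and 2216 CPM in *pif3*, and 1660, 1763 and 1654 CPM in WT. The early genes summed to 2900 ± 371 CPM in *pifq*, 2491 ± 373 CPM in *pif145*, 1895 ± 133 CPM in *pif3*, and 1671 ± 62.1 CPM in WT (SD, n = 3). In the heme branch the sum was 73.4 ± 8.93 CPM in *pifq*, 72.1 ± 6.6 CPM in *pif145*, 69.6 ± 3.55 CPM in *pif3*, and 69.3 ± 3.49 CPM in WT. The magnesium sums of the 4 genotypes did not overlap, and the heme sums overlapped in all genotypes. Genes with many reads weigh most in these sums. *HO1* made up 45.7 of the 73.4 CPM of the heme sum in *pifq* and 46.5 of the 69.3 CPM in WT. *CHL27* made up 1525 of the 3955 CPM of the magnesium sum in *pifq*. All 30 genes made up 0.71% of the scaled reads in *pifq*, 0.582% in *pif145*, 0.415% in *pif3* and 0.358% in WT. Reads were counted in the last 500 bases of every transcript, which limits the part of transcript length in CPM values. Other differences between genes in capture and mapping were not assessed, so a ratio of 2 genes is one of reads. *FC2* had 428 reads in all *pifq* libraries and 382 in all WT libraries. At the branch point there were 75.9, 109 and 106 reads of *CHLH* per read of *FC2* in *pifq*, 69.6, 59.6 and 76 in *pif145*, 33.3, 38.5 and 55.9 in *pif3*, and 36.6, 30 and 36.2 in WT.

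**Figure D4:**
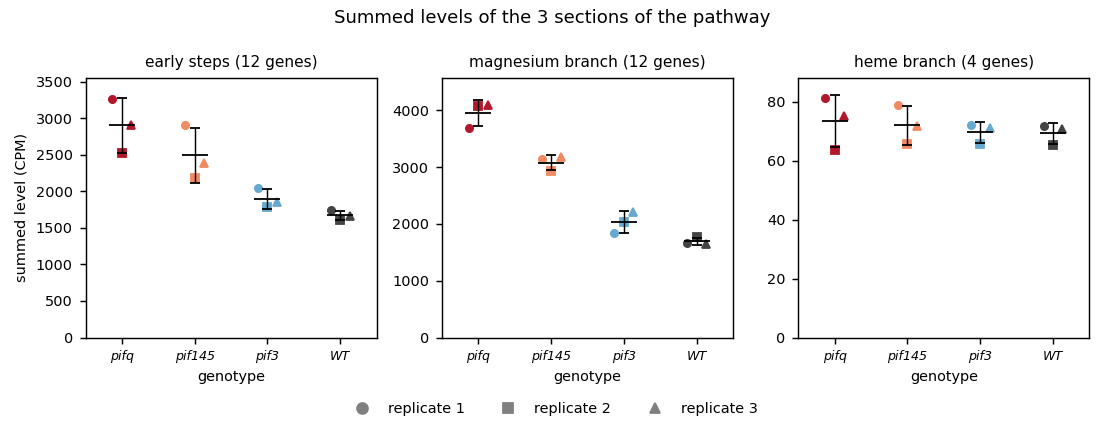
Summed level in CPM (TMM-scaled) of the early, magnesium-branch and heme-branch genes, by library, with mean ± SD (n = 3), each panel on its own axis from 0. The magnesium branch stands at 3955 ± 234 CPM in *pifq* and 1692 ± 61.2 CPM in WT, and the heme branch at 73.4 ± 8.93 CPM in *pifq* and 69.3 ± 3.49 CPM in WT.

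In *pif145*, 4 members rose relative to WT and 0 fell, all 4 of the magnesium branch, against 0.893% of all genes that rose. They were *CHLH* by 1.41 ± 0.14 (adjusted p = 0.000319), *GUN4* by 1.48 ± 0.19 (adjusted p = 0.00148), *CHL27* by 1.01 ± 0.22 (adjusted p = 0.0269) and *CAO* by 1.27 ± 0.27 (adjusted p = 0.0244) on the log2 scale in edgeR. *HEME1* (0.75 ± 0.13), *YCF54* (0.60 ± 0.13) and *DVR* (0.93 ± 0.22) also passed the adjusted p, for 7 members against 1.98% of all genes. In 18 members, 11 of them in the magnesium branch, every *pif145* library was above every WT library, against 10.9% of all genes. *HEMA1* was at a log2 fold change of 0.93 ± 0.25 (adjusted p = 0.0702) in edgeR and *CHLI1* at 0.89 ± 0.24 (adjusted p = 0.0646). The median log2 fold change was 0.55 over the early genes, 0.79 over the magnesium branch and 0.14 over the heme branch, beside -0.02 over all genes. With the replicate number as a block, 23 members were higher at the adjusted p, against 16.2% of all genes. In that fit 4 members rose, against 371 of all 18356 genes. *CAO* and *CHL27* were each lost without WT replicate 2, WT replicate 3 or *pif145* replicate 3, *CHL27* also without WT replicate 1 or *pif145* replicate 2, and *CAO* without *pif145* replicate 1, so that 2 members rose without WT replicate 2 or *pif145* replicate 3. Both were also lost without scaling factors, *CAO* in a fit of the compared libraries alone, and without replicate 3 of every genotype 0 members rose. The count of 7 became 4 without *pif145* replicate 1 or 2 or any WT replicate, and 3 without *pif145* replicate 3.

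In *pif3*, 0 members rose or fell relative to WT and 0 passed the adjusted p in edgeR or by DESeq2. At an unadjusted p of 0.05 in edgeR there were 2 members, against 849 of all 18356 genes. Of all genes, 0.0272% rose, and the same 0.0272% were higher at the adjusted p alone. *CHLH*, at 146 to 176 CPM in *pif3* and 111 to 135 CPM in WT, had a log2 fold change of 0.41 ± 0.13 (adjusted p = 0.731) in edgeR, and *GUN4* one of 0.46 ± 0.19 (adjusted p = 1). *CHLH* and *GSA1* were the members in which every *pif3* library was above every WT library, 2 of 30, against 5.17% of all genes. The largest value was that of *GUN4*, and the medians were 0.18 over the early genes, 0.30 over the magnesium branch and 0.01 over the heme branch. With the replicate number as a block, 10 members were higher at the adjusted p, each by less than 2-fold, against 5.11% of all genes, and *CHLD* was lower (-0.31, adjusted p = 0.0289 in edgeR). The 10 were *HEMA1*, *GSA2*, *CHLH*, *CHLI1*, *CHLI2*, *GUN4*, *CHLM*, *CHL27*, *DVR* and *CHLP*. The comparisons with WT share the WT libraries, so their values are set side by side and no agreement between them is drawn.

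Differences between the mutants were tested directly. In *pifq* relative to *pif3*, 6 members rose, against 2.49% of all genes, and 16 were higher at the adjusted p, against 5.59%. The risen genes were *HEMA1* by 1.19 ± 0.25 (adjusted p = 0.0115), *CHLH* by 1.52 ± 0.14, *GUN4* by 1.52 ± 0.19, *CHL27* by 1.11 ± 0.22, *DVR* by 1.02 ± 0.22 and *CAO* by 1.49 ± 0.27 in edgeR. Medians were 0.58 over the early genes, 0.91 over the magnesium branch and 0.27 over the heme branch. *CHL27* was lost without *pif3* replicate 1 or *pifq* replicate 2, *DVR* without *pif3* replicate 1, *pif3* replicate 2, *pifq* replicate 3 or scaling factors, and *HEMA1* without *pifq* replicate 3, which left 4. Without replicate 2 of every genotype 3 members rose, *CHLH*, *GUN4* and *HEME1*, and without replicate 3 of every genotype 2 rose, *CHLH* and *GUN4*. *CAO*, *CHL27*, *DVR* and *HEMA1* were lost in both cases. The count of 16 became 8 without *pifq* replicate 1, 7 without *pifq* replicate 3, and 9 without *pif3* replicate 2 or 3. With the replicate block, 24 members were higher at the adjusted p, against 21.3% of all genes, and *HEMA2* was lower by less than 2-fold (-0.43, adjusted p = 0.00713 in edgeR).

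In *pif145* relative to *pif3*, 2 members rose, against 0.174% of all genes, and the same 2 were those higher at the adjusted p, against 0.267%. *CHLH* was higher by 1.01 ± 0.14 (adjusted p = 0.003) and *GUN4* by 1.02 ± 0.19 (adjusted p = 0.0234) on the log2 scale in edgeR, with 305 to 361 CPM of *CHLH* in *pif145* and 146 to 176 CPM in *pif3*. *CAO* was at 0.99 ± 0.27 and did not pass (adjusted p = 0.124 in edgeR). Both calls were lost without *pif145* replicate 1 or *pif3* replicate 1, and that of *GUN4* without *pif145* replicate 3 or *pif3* replicate 2 or 3, where 1 member passed the adjusted p in each case. That of *GUN4* was also lost without scaling factors and in a fit of the compared libraries alone. Leaving replicate 1, 2 or 3 out of every genotype removed both calls each time. With the replicate block, 23 members were higher at the adjusted p, against 10.2% of all genes.

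In *pifq* relative to *pif145*, which differ in *PIF3*, 0 members rose, against 0.251% of all genes. In edgeR 0 members passed the adjusted p, against 0.354% of all genes that were higher. At an unadjusted p of 0.05 in edgeR there were 7 members, against 1612 of all 18356 genes. By DESeq2, for which no share of all genes is given, 2 members passed the adjusted p. The largest log2 fold change was that of *HEMA1*, at 0.66 ± 0.25 (adjusted p = 0.416) in edgeR, with 114 to 180 CPM in *pifq* and 79.8 to 106 CPM in *pif145*. *CHLH* was at 0.51 ± 0.13 (adjusted p = 0.127) and *HEME1* at 0.44 ± 0.13 (adjusted p = 0.189). With the replicate block, 16 members were higher at the adjusted p, each by less than 2-fold, against 7.72% of all genes, 10 of them in the magnesium branch, 6 in the early steps and 0 in the heme branch. Whether the loss of PIF3 had another effect without PIF1, PIF4 and PIF5 than with them was tested by subtracting *pif3*/WT from *pifq*/*pif145* on the log2 scale. The difference passed the adjusted p in 0 of 30 members in edgeR (0 by DESeq2), against 0.109% of all genes in edgeR. At an unadjusted p of 0.05 in edgeR there were 0 members, against 567 of all 18356 genes. For *CHLH* it was 0.11 on the log2 scale (95% interval -0.31 to 0.52), for *GUN4* 0.04 (-0.54 to 0.61) and for *HEMA1* 0.26 (-0.51 to 1.03). The replicate block also left 0 members past the adjusted p for this difference, against 101 higher and 369 lower of all 18356 genes. In that fit it was 0.10 ± 0.13 for *CHLH*, 0.03 ± 0.16 for *GUN4* and 0.24 ± 0.13 for *HEMA1*.

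Mean levels stood in the order *pifq* over *pif145* over *pif3* over WT in 23 of 30 members (76.7%), against 18.4% of all genes tested. This held for 11 of the 12 magnesium-branch genes, 9 of the 12 early genes, 2 of the 4 heme-branch genes and 1 of the 2 regulators. The 7 others were *HEMA2*, *HEMD*, *PPOX2*, *CHLD*, *FC1*, *HO1* and *FLU*. Neighbours in that order did not pass the test in *pifq*/*pif145* or *pif3*/WT in edgeR without the replicate block, as given above.

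For the 6 enzymes with a pair of genes, the share of reads from the first gene does not depend on scaling between libraries. *HEMA1* made up 96.5, 96.8 and 94.3% of the reads of *HEMA1* and *HEMA2* in *pifq*, 93.8, 93.6 and 91.4% in *pif145*, 89.8, 90.9 and 84.4% in *pif3*, and 85.5, 89.7 and 82.8% in WT. *pifq* and *pif145* did not overlap with WT, and the difference from WT was 9.91 points in *pifq* and 6.99 points in *pif145*, each at the smallest p of 0.1 that a two-sided exact permutation test of 3 against 3 can give (0.4 after adjustment over 18 tests). *CHLI1* took 92.6 ± 0.481% of its pair in *pifq*, 92.8 ± 0.633% in *pif145*, 92.2 ± 0.257% in *pif3*, and 91.8 ± 0.328% in WT, again without overlap of *pifq* or *pif145* with WT, but with differences of 0.797 and 1.05 points. *GSA1* took 87.8 ± 2.16% in *pifq* and 90.4 ± 1.49% in WT, and *HEME1* 54.3 ± 8.13% in *pifq* and 51.9 ± 3.35% in WT. *PPOX1* took 83.6 ± 3.97% in *pifq* and 77 ± 3.85% in WT, and *FC1* 53.4 ± 1.71% in *pifq* and 60 ± 8.95% in WT. In these 4 pairs the genotypes overlapped.

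**Figure D5:**
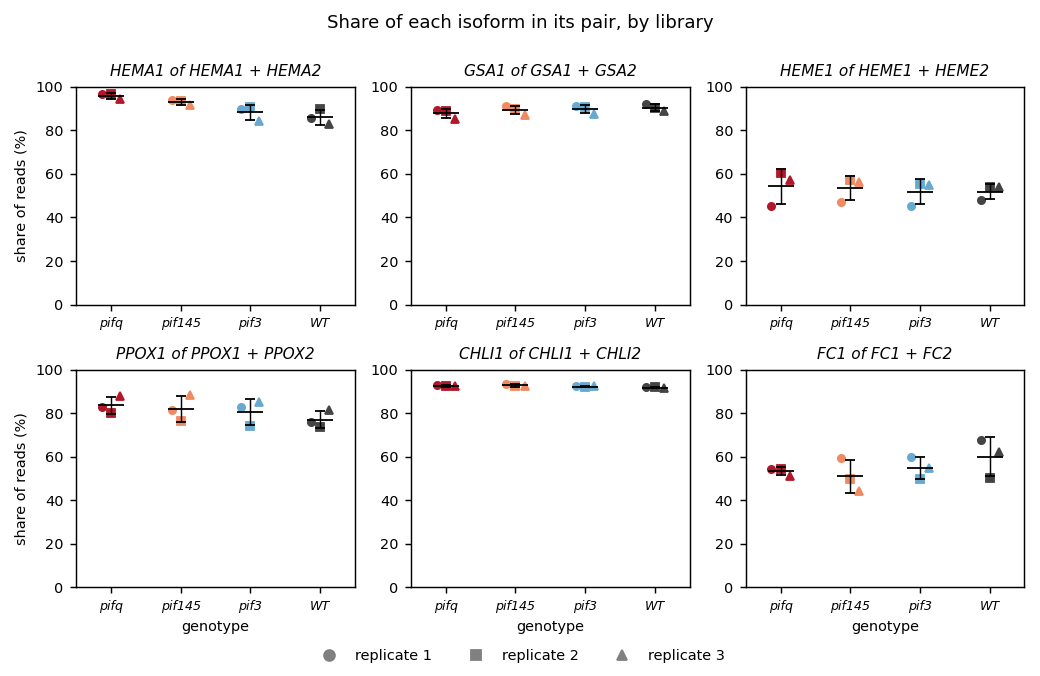
Share in percent of the reads of a gene pair that came from the first gene, by library, with mean ± SD (n = 3) and marker shape for the replicate number. *HEMA1* takes 95.9 ± 1.35% in *pifq* and 86 ± 3.5% in WT, and the other pairs differ by less between these genotypes.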

How the data were processed

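The deposited values were counts per locus, 1 table per genotype, with groups and replicate numbers from the sample labels. The authors sequenced replicate 1 on a GAIIx and replicates 2 and 3 on a HiSeq2000, used 36 bases of each read, and aligned with Bowtie allowing 0 mismatches. The count of a locus covers the last 500 bases of its transcript, in sense orientation, and leaves out reads that also match another locus. The methods name TAIR9, and the submitters' processing notes name TAIR10, Bowtie 0.12.7 and CASAVA 1.7.0. No row lacked a locus name (0), and total counts were 23907577 to 41247734 per library. Replicates of 1 genotype were not copies of a library (lowest chi-square over its degrees of freedom 37.5). The study calls them biological replicates, and separate cultures are not stated.

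Counts were scaled by TMM (factors 0.901 to 1.19) and tested by the quasi-likelihood test of edgeR 4.0.16 (R 4.3.3) with genotype as the only term over 12 libraries, after its expression filter left 18356 genes. Adjusted p-values are Benjamini-Hochberg values over these genes. Levels are CPM on the TMM scale. Alternatives were DESeq2 1.42.0 as test and as size factors, no scaling, other filters, a platform term, the compared libraries alone, a replicate block, and libraries left out. Isoform shares were compared by exact permutation in scipy 1.17.1. Coordinates and upstream sequences come from RefSeq's TAIR10.1, while the counts carry no coordinates, and 97.7% of loci matched it.

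The replicate numbers pair the libraries. Deviations from genotype means had correlations of 0.51 to 0.68 over genes among 18 same-number pairs, all above 0.1, against -0.49 to -0.0036 in the others. What a number marks is not given in the labels. The main fit leaves this pairing out. The common dispersion of edgeR, its measure of spread between replicates, was 0.0572 in the main fit and 0.00719 with the replicate block. The instrument follows the replicate number, so it is balanced over genotypes. All 30 members are named, with the 4 of 24 further pathway genes of smallest adjusted p in *pifq*/WT, the PIF genes and the tissue markers. The members and gene lists were chosen with earlier results of these data known. The upstream sequence of 1 member with a motif is not reported here. The statistical procedure was tested on simulated data. That test covered *pifq*/WT in the main fit. The simulated libraries were not paired by replicate number, so it did not cover the pairing or the replicate block.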

Additional observations from a re-analysis of the deposited data

How the results depend on the processing

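With 3 libraries per genotype, standard errors of the members in *pifq*/WT ran from 0.11 in *HEMB1* to 0.49 in *HEMA2*. No called value reversed (0) among 4793 combinations of gene, comparison and setting, 60 calls were lost and 27 gained over 23 settings, and the cause was not tested. Without scaling factors the median of all genes moved by -0.17 in *pifq*/WT, -0.10 in *pif145*/WT and -0.11 in *pif3*/WT on the log2 scale, and changes are read relative to it. In that setting the members past the adjusted p numbered 13 in *pifq*/WT, 9 in *pifq*/*pif3* and 1 in *pif145*/*pif3*, and those that rose 2 in *pif145*/WT, 1 in *pif145*/*pif3*, 5 in *pifq*/*pif3*, without *DVR*, and 8 in *pifq*/WT, without *CHLI2* and *HEME2*. Without scaling factors, 579 of all genes rose in *pifq*/WT, 104 in *pif145*/WT, 337 in *pifq*/*pif3* and 24 in *pif145*/*pif3*. With DESeq2 the members past the adjusted p numbered 15 in *pif145*/WT, 2 in *pifq*/*pif145* and 6 in *pif145*/*pif3*. With a platform term they numbered 17, 5 and 11 in the same comparisons. With only the compared libraries they numbered 3 in *pif145*/WT, where 3 rose, 9 in *pifq*/*pif3* and 1 in *pif145*/*pif3*, where 1 rose. Shares of all genes past the adjusted p are not given for these settings or for libraries left out. The counts of members in them are therefore not read as results about the pathway. With the replicate block, which pairs libraries by number, members past the adjusted p numbered 24 in *pifq*/WT (23 higher, 1 lower) and 23 in *pif145*/WT. In the same fit they numbered 11 in *pif3*/WT (10 higher, 1 lower), 16 in *pifq*/*pif145*, 25 in *pifq*/*pif3* (24 higher, 1 lower) and 23 in *pif145*/*pif3*. The block left the counts of risen members at 10 in *pifq*/WT, 4 in *pif145*/WT, 6 in *pifq*/*pif3*, 2 in *pif145*/*pif3* and 0 in the 2 others. Of all 18356 genes, 1133, 371, 704 and 173 rose with the block in those 4 comparisons, against 904, 164, 457 and 32 in the main fit. Unchanged counts of members thus stood beside more risen genes. Leaving out libraries moved the risen members over 6 to 14 in *pifq*/WT, 0 to 4 in *pif145*/WT, 2 to 8 in *pifq*/*pif3* and 0 to 2 in *pif145*/*pif3*. Members past the adjusted p moved over 9 to 20, 0 to 7, 4 to 17 and 0 to 2 in the same comparisons. Without replicate 3 of every genotype, 6 members rose in *pifq*/WT, 0 in *pif145*/WT and 2 in *pifq*/*pif3*.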

Other observations

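Of a list of 24 further genes of tetrapyrrole use and chlorophyll breakdown, 21 were tested. In *pifq*/WT, 2 rose, against 4.92% of all genes, and 1 fell, against 3.35%. The other 18 did not pass both thresholds in edgeR. *UPM1*, which diverts uroporphyrinogen III to siroheme, had 35.2, 33.5 and 39.2 CPM in *pifq*, 24.1, 19.3 and 24.4 CPM in *pif145*, 15.5, 13.5 and 18.6 CPM in *pif3*, and 12, 12.6 and 16.4 CPM in WT. Its *pifq* libraries lay above all others, and its log2 fold change in *pifq*/WT was 1.40 ± 0.18 (SE, adjusted p = 0.000227 in edgeR). *SGRL*, a relative of the chlorophyll breakdown gene *SGR1*, was at 12.5 ± 5.52 CPM in *pifq* and 5.13 ± 1.07 CPM in WT (SD, n = 3), and rose by 1.28 ± 0.38 on the log2 scale (adjusted p = 0.0348 in edgeR), with replicate 1 the highest in each genotype. *CLH1*, a chlorophyllase, was at 8.78 ± 1.3 CPM in *pifq* and 4.63 ± 0.619 CPM in WT, with a log2 fold change of 0.92 ± 0.22 that passed the adjusted p (0.0122 in edgeR) but not 2-fold.

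*TSPO*, a membrane protein that binds porphyrins, had 27.5, 40.1 and 45.7 CPM in *pifq*, 29.7, 42.8 and 48.4 CPM in *pif145*, 212, 196 and 196 CPM in *pif3*, and 135, 64.2 and 85.1 CPM in WT. *pifq* and *pif145* lay below *pif3* and WT without overlap, and the log2 fold change in *pifq*/WT was -1.33 ± 0.27 (SE, adjusted p = 0.00542 in edgeR). All *pif3* libraries were above those of WT, with a log2 fold change of 1.08 ± 0.27. It did not pass in edgeR (adjusted p = 0.415) but did with the replicate block (1.09, adjusted p = 0.00233). The seed storage gene *CRA1* was low in *pifq* and *pif145* too, at 61.2 ± 24.6 CPM in *pifq* and 637 ± 320 CPM in WT. In *pif3* it stood at 586 ± 180 CPM, not above WT, and its part in these values was not tested.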
